A study of Mus musculus with 20 samples.

Results

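The comparison was of bone marrow-derived macrophages (BMDMs) given the protein-rich fraction (ProteinFx) or the extracellular vesicle fraction (EVFx) of inflamed airway fluid, both from donor mice that lack the Y RNA gene RNY1. It took the 4 RNY1-/- ProteinFx libraries and the 4 RNY1-/- EVFx libraries. Every gene whose mean over these 8 was 3 counts per 1000000 (CPM) or more was included, which gave 10419 genes of the 78317 entries listed. Of the 10419, 9132 are protein-coding, 567 are long noncoding RNAs and 434 are processed pseudogenes. The gene nearest inside the limit was Cwf19l1 with a mean of 3.0015 CPM and the nearest outside was Alkbh7 with 2.998 CPM. A gene found in 1 fraction only enters through that fraction, so counts over the members of a list cover the members tested and are a description.

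The series holds 20 libraries, 4 for each of 5 treatments of the same kind of macrophage: PBS, RNY1+/+ EVFx, RNY1-/- EVFx, RNY1+/+ ProteinFx and RNY1-/- ProteinFx. The genotype is that of the fluid's donors. The donors carried a CRISPR deletion of RNY1 (RNY1-/-) or were RNY1+/+, were sensitized to ovalbumin and were challenged with it in the airway. Their bronchoalveolar lavage fluid was split by size exclusion chromatography. The recipient macrophages in every group came from the marrow of wild-type C57BL/6J female mice and were treated on day 7 of culture at 200000 cells per well in medium without serum. EVFx was given at 35000000 particles per µL and ProteinFx at 0.75 µg of protein per µL, so the fractions were dosed on different scales and a difference between them holds for these doses. Both fractions had been kept for 5 days at 4°C. The exposure time is not given in the sources used here. Nor is it stated which libraries had a pool of fluid, a mouse or a culture well in common, so each p-value measures only the spread between these libraries.

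Macrophages change their transcription with what they take up or bind. Oxidants and electrophiles release the transcription factor NRF2 from its inhibitor KEAP1, and NRF2 then switches on genes for glutathione and thioredoxin chemistry. Ligands of pattern recognition receptors switch on cytokine and chemokine genes through NF-kB. Interferons switch on antiviral genes through receptors of their own, and the type 2 cytokines of allergic airways act through STAT6 on genes of alternative activation such as Arg1 and Mrc1. The gene lists below follow these programmes.

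Each of the 8 libraries had 2510005 to 7613972 counts. Between the fractions, the exact permutation test (two-sided, smallest possible p = 0.0286) gave p = 0.29 for total counts, p = 0.23 for the mitochondrial share of counts (means of 5.42% in ProteinFx and 5.77% in EVFx) and p = 0.43 for the ribosomal protein share (3.47% and 3.12%). Across the genes tested, the root mean square log2 difference between 2 libraries was 0.647 to 0.802 between the fractions and 0.228 to 0.374 within EVFx. Within ProteinFx, replicates 1 and 2 (0.228) and replicates 3 and 4 (0.333) were close, and libraries across these pairs were 0.456 to 0.552 apart. The biological coefficient of variation was 17.4% in ProteinFx and 9.93% in EVFx. All library names share 1 prefix, and no label states a batch. Where a call below was lost or made with 1 of these pairs alone, that value is given.

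The macrophage label fitted the markers, with 10 of 10 macrophage markers tested and a summed level of 8730 to 9728 CPM in EVFx and 10069 to 11749 CPM in ProteinFx. Of markers of other cells that lavage fluid or marrow could bring, 0 of 9 for B and plasma cells, 1 of 9 for eosinophils, 2 of 9 for T cells, 2 of 16 for airway epithelium and 4 of 12 for neutrophils reached a mean of 3 CPM. The eosinophil marker that did, Ccr3, with 226 counts in ProteinFx and 34 in EVFx, was at 1.5 ± 0.676 CPM in EVFx and 12.9 ± 3.19 CPM in ProteinFx (SD, n = 4 here and below) and at 8.47 ± 3.26 CPM with PBS. Under the limit, Siglecf had up to 2 counts in an EVFx library and 14 in a ProteinFx library. Its means were 0.108 and 1.47 CPM, and 0.32 CPM with PBS. Prg2 had up to 2 counts in an EVFx library and 1 in a ProteinFx library. The T cell markers were Cd28 and Il7r. With them the summed T cell list lay at 246 to 270.2 CPM in EVFx, 468 to 549 CPM in ProteinFx and 749 to 1069.9 CPM with PBS. Cd3e and Lck, which define T cells, had at most 1 count in any of the 8 libraries. Cd4 had up to 15 counts in an EVFx library and up to 26 in a ProteinFx library. Its means were 1.37 and 1.81 CPM, and 5.18 CPM with PBS. Trac had up to 3 counts and Cd3g up to 2 in a library. The summed alveolar macrophage list lay at 134 to 253 CPM in EVFx and 77.8 to 122 CPM in ProteinFx, and its 3 tested members went different ways. Marco was at 153 and 33.7 CPM, Chil3 at 6.16 and 26.9 CPM and Pparg at 14.2 and 28.1 CPM. Among neutrophil markers under the limit, Ly6g and Elane were at 0 in all 8 libraries, while Ngp had up to 35 counts in a library (2.22 and 3.46 CPM), Camp up to 16, Ltf up to 15 and Retnlg up to 13. The 4 neutrophil markers were S100a8, S100a9, Mmp8 and Csf3r. The summed neutrophil list lay at 212 to 290 CPM in EVFx, 287 to 430 CPM in ProteinFx and 353 to 374 CPM with PBS. Since these are bulk libraries, fewer cells of a type and less RNA per cell cannot be told apart, and the part of these markers in the results was not tested.

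Between the fractions, genes of the NRF2 response, inflammatory cytokines, neutrophil-attracting chemokines, the lectin Clec4e and cholesterol synthesis were higher in EVFx-treated macrophages. Genes of alternative activation, monocyte-attracting chemokines and their receptors, complement and Fc receptors and genes of the resting macrophage were higher in ProteinFx-treated ones. By edgeR's quasi-likelihood test, 519 genes (4.98% of those tested) were at least doubled in ProteinFx and 423 (4.06%) at least doubled in EVFx at an adjusted p under 0.05 (a log2 fold change beyond 1 in either direction). These 942 are called differentially expressed genes (DEGs). With no limit on the fold, 1581 genes (15.2%) were higher in ProteinFx and 1466 (14.1%) in EVFx at that adjusted p, and these are the calls counted for the lists below. A log2 fold change here is ProteinFx over EVFx, so a negative value means higher in EVFx. The split of the DEGs depended on the scaling, with 710 higher and 320 lower when total counts replaced TMM factors, which moved the median of all genes by 0.17 on the log2 scale. CPM values quoted are relative to the library's total, so they carry this shift. On that scale 23.1% of all genes tested had every ProteinFx library above every EVFx library and 9.94% had every one below.

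**Figure D1:**
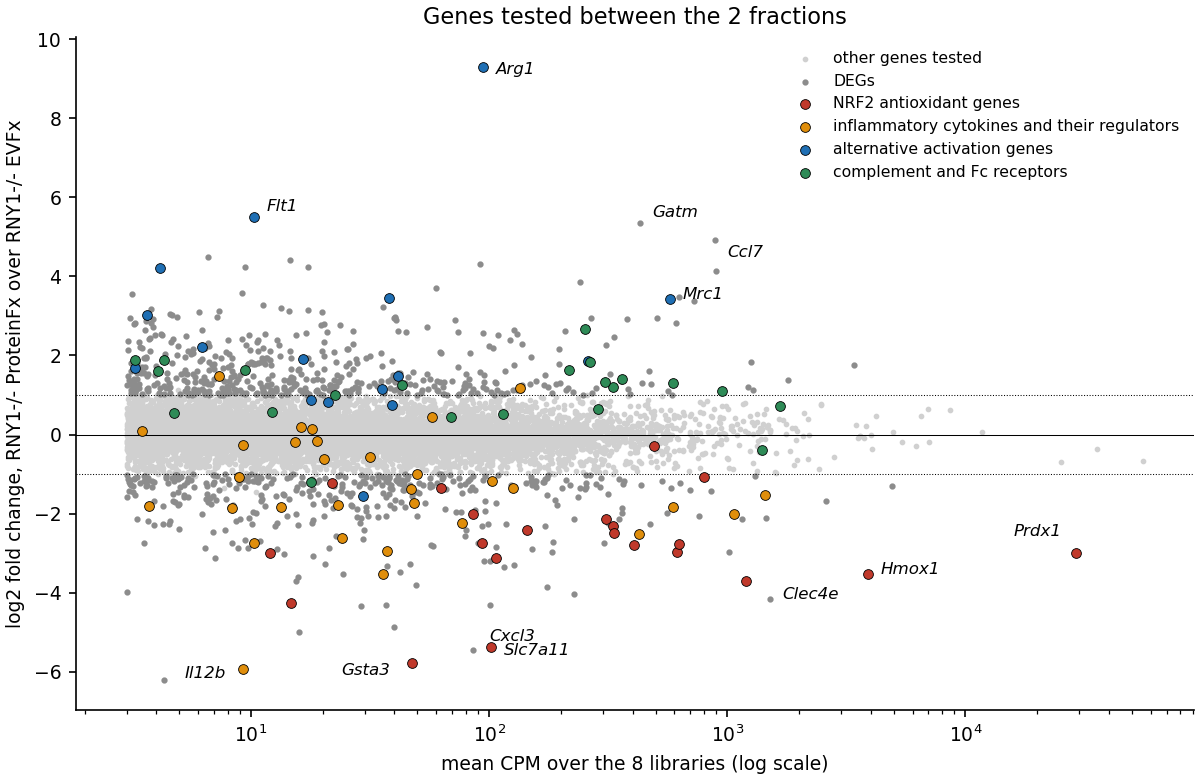
Log2 fold change of ProteinFx over EVFx (y axis) against mean CPM over the 8 libraries (x axis, log scale) for the 10419 genes tested, 1 point per gene, with DEGs in dark grey, 4 gene lists in colour and dotted lines at the limits of 1 and -1. The NRF2 genes lie below the lower limit apart from Nfe2l2 itself at -0.28, down to -5.77 for Gsta3, and Arg1 stands at the top at 9.28.

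**Figure D2:**
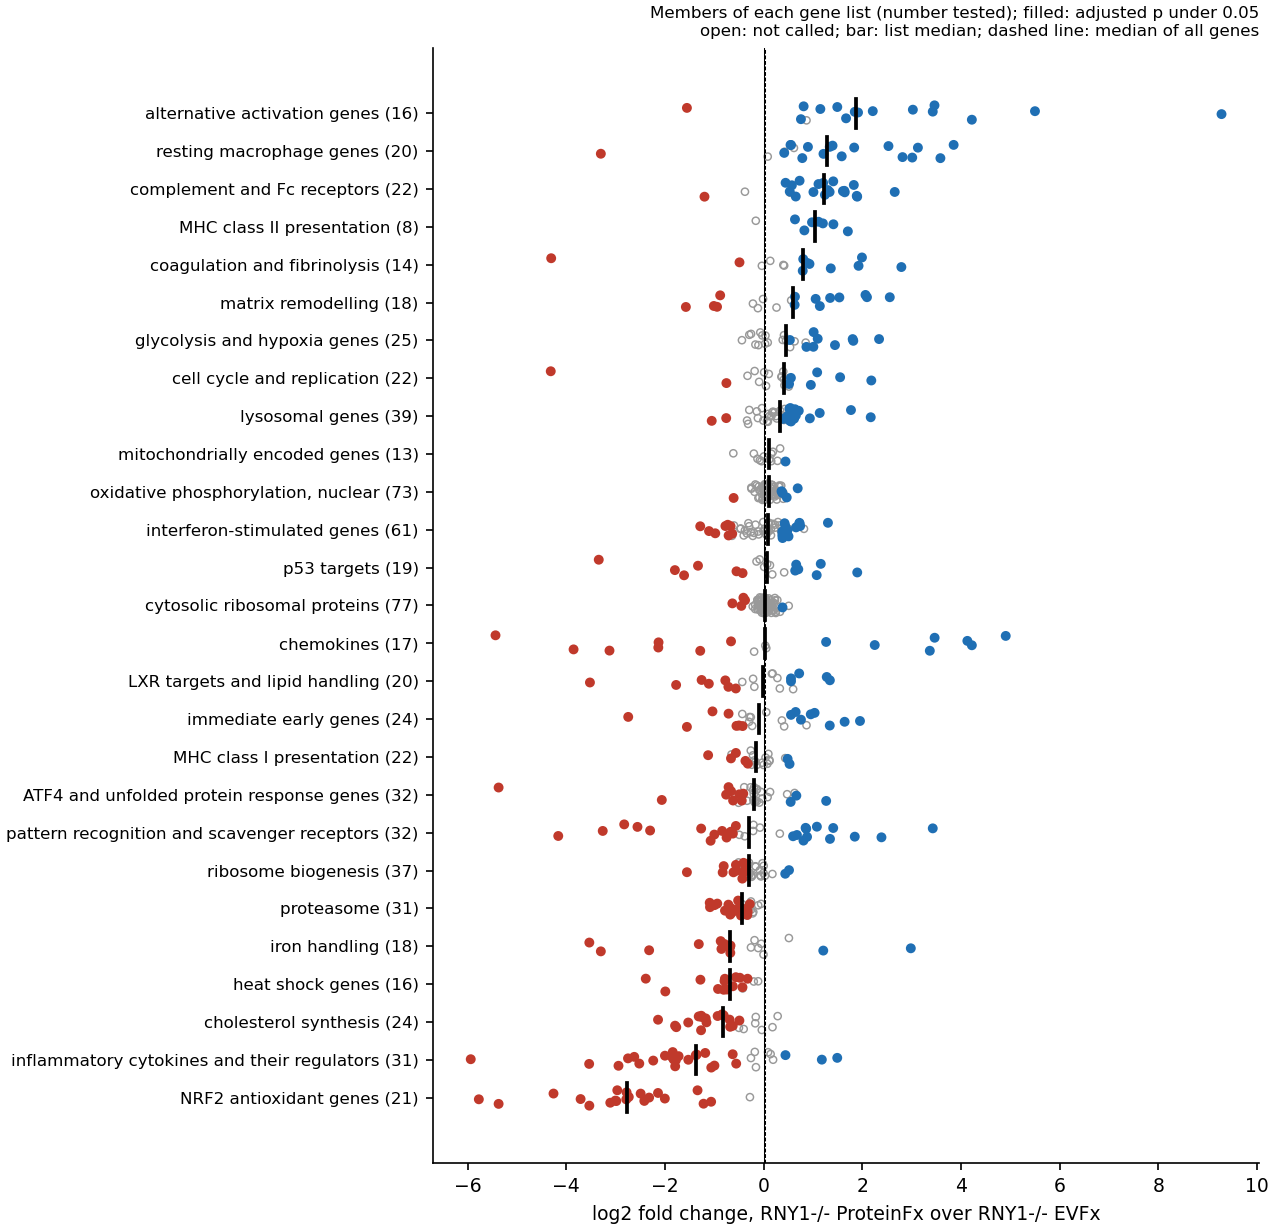
Log2 fold change of ProteinFx over EVFx (x axis) for each tested member of the 27 gene lists (rows, ordered by median, with the number of members tested in brackets), with filled points for an adjusted p under 0.05. List medians (bars) run from -2.78 for the NRF2 genes to 1.88 for alternative activation, against 0.02 for all genes (dashed line).

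The NRF2 antioxidant genes had the median furthest from 0 of the 27 lists. Of 22 genes listed 21 were tested, and 20 were higher in EVFx, each by more than the fold limit for DEGs, and 0 were higher in ProteinFx. The median log2 fold change was -2.78, against 0.02 over all genes tested. The remaining member was Nfe2l2, which encodes NRF2 itself and stood at 513 ± 37.8 CPM in EVFx and 471 ± 97.7 CPM in ProteinFx (log2 fold change -0.28, SE 0.16, adjusted p = 0.23). With ProteinFx replicates 1 and 2 alone Nfe2l2 was called lower (-0.61, adjusted p = 0.0007), and with replicates 3 and 4 alone it was at -0.0028 (adjusted p = 0.99). Slc7a11 (ENSMUSG00000027737), the cystine importer that feeds glutathione synthesis, was at 162, 137, 249.8 and 244 CPM in the 4 EVFx libraries and 4.58, 4.62, 7.57 and 5.97 CPM in the 4 ProteinFx libraries (log2 fold change -5.37, SE 0.27, adjusted p = 3.7e-08). The ProteinFx level lay by the 5.08 ± 2.59 CPM of PBS-treated cells, and every EVFx library was above both. Gclm (ENSMUSG00000028124), the modifier subunit of the enzyme that starts glutathione synthesis, read 2007, 1889.7, 2538 and 2413 CPM in EVFx and 157, 149, 232 and 217 CPM in ProteinFx (log2 fold change -3.71, SE 0.2, adjusted p = 5.6e-08).

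The glutathione transferase gene Gsta3 (ENSMUSG00000025934) had 75.4, 73, 118 and 104 CPM in EVFx and 0.378, 1.96, 2.79 and 3.11 CPM in ProteinFx (log2 fold change -5.77, SE 0.33, adjusted p = 9.6e-08). Me1, the malic enzyme that supplies NADPH, had 24, 23.7, 29.2 and 33.5 CPM against 1.2, 1.7, 2.12 and 1.9 CPM (log2 fold change -4.26, SE 0.23, adjusted p = 6.2e-08). In both genes the lowest EVFx library was more than 10 CPM above the highest ProteinFx library. Prdx1 (ENSMUSG00000028691), the peroxiredoxin that reduces peroxides, the DEG with the highest mean CPM, had 46099, 42613, 58389 and 58199 CPM in EVFx against 5333, 6567, 9348 and 7625 CPM in ProteinFx and 9059.9 ± 2303 CPM with PBS (log2 fold change -2.99, SE 0.21, adjusted p = 4.5e-07). Prdx1, Gclm and Me1 held fractional counts in 7, 8 and 7 of the 8 libraries, from reads that map to more than 1 place, so the size of their change is uncertain. Other members called were the sulfiredoxin gene Srxn1 (-3.11, adjusted p = 2.7e-08), the catalase gene Cat (-2.97, adjusted p = 7.7e-09), glutathione reductase Gsr (-2.78, adjusted p = 4.3e-08) and thioredoxin reductase Txnrd1 (-2.49, adjusted p = 2.7e-07).

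NRF2 binds the antioxidant response element. The promoters of this list are shown because its members moved together. The list names genes of the NRF2 response, so its share of such letters describes that choice and is not a test of these libraries. The letters searched for were TGACNNNGC on either strand, from 250 bases before to 50 bases after each annotated start (RefSeq promoters, build GRCm38.p6). Promoters were at hand for 17 of the 21 members, 23 promoters in all. Of these, 9 (39.1%) held the letters, against 14.7% of the 9457 promoters of genes tested and 12.4% of all 32851 promoters. DEGs higher in EVFx held them in 17.5% of promoters and DEGs higher in ProteinFx in 14.9%. Among other lists the share was 31.2% (5 of 16 promoters) for alternative activation and 20% (4 of 20) for cholesterol synthesis. The windows below run 5′ to 3′ along the gene's own strand, with the matching letters in capitals. They are for 6 members among the 9 that held the letters, at 6 to 134 bases before the start or, in Srxn1, after it.
Gsta3 (chr1:21240414-21240522, plus strand): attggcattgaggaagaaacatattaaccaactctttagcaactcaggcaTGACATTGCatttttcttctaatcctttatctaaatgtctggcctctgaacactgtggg
Me1 (chr9:86695865-86695970, minus strand): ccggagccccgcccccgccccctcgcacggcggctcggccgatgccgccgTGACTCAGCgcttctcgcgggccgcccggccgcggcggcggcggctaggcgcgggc
Gclm (chr3:122245373-122245481, plus strand): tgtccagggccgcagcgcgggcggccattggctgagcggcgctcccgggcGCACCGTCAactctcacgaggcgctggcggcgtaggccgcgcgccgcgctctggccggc
Srxn1 (chr2:152105502-152105573, plus strand): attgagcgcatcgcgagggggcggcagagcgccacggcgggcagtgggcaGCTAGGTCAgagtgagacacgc
Prdx1 (chr4:116685416-116685524, plus strand): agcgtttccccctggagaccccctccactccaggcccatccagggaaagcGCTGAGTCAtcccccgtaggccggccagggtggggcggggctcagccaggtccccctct
Txnrd1 (chr10:82859064-82859172, plus strand): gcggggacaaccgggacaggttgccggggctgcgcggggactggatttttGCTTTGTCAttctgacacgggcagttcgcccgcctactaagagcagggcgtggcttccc
The other 3 were G6pdx, Pgd and Nfe2l2, and the last of these was not called between the fractions. A match describes the letters and is not a measured binding site, and a promoter without one may hold such letters outside this window.

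Iron and heme genes had the same direction more often than not, with 10 of 18 tested members (22 listed) higher in EVFx and 2 higher in ProteinFx (median -0.67). Hmox1 (ENSMUSG00000005413), heme oxygenase 1, had 6713, 6530, 7270.2 and 7815 CPM in the EVFx libraries and 721, 737, 673 and 614 CPM in the ProteinFx libraries (log2 fold change -3.53, SE 0.12, adjusted p = 5.4e-09). PBS-treated cells were between the groups at 1162 ± 169.7 CPM. Slc40a1, the iron exporter ferroportin, was at 229 ± 22.1 CPM in EVFx and 25.7 ± 5.64 CPM in ProteinFx (log2 fold change -3.3, SE 0.14, adjusted p = 1.8e-08). Here the EVFx level was the one nearer to PBS (323 ± 37.5 CPM). Spic (ENSMUSG00000004359), a transcription factor of iron-recycling macrophages, had 78.2, 81.3, 67 and 81.1 CPM against 3.65, 3.08, 3.19 and 1.82 CPM (log2 fold change -4.87, SE 0.16, adjusted p = 5.4e-09). PBS-treated cells had 4.91 ± 1.41 CPM. The biliverdin reductase gene Blvrb had the same direction (-2.32, adjusted p = 3.7e-08). In the other direction was Hfe, which takes part in iron sensing, at 8.06 ± 2.26 CPM in EVFx and 72.3 ± 3.41 CPM in ProteinFx (log2 fold change 2.98, SE 0.16, adjusted p = 5.9e-08).

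Inflammatory cytokines and their regulators were higher in EVFx for 22 of 31 tested members (39 listed) and higher in ProteinFx for 3 (median -1.38). Tnf (ENSMUSG00000024401) had 60.2, 73.3, 54.9 and 72.7 CPM in the EVFx libraries and 11.1, 10.6, 7.57 and 7.78 CPM in the ProteinFx libraries (log2 fold change -2.94, SE 0.16, adjusted p = 5.4e-08), so the groups did not overlap. PBS-treated cells had 5.54 ± 1.38 CPM. Il12b, the shared subunit of interleukins 12 and 23, had 452 counts over the EVFx libraries and 6 over the ProteinFx libraries. Its level was 58.2-fold higher in EVFx by pooled counts (95% exact interval 26.5 to 159.5, for counting error only; log2 fold change -5.94, SE 0.5, adjusted p = 2.5e-06). The prostaglandin enzymes Ptgs2 and Ptges were at 65 ± 21.1 and 17.8 ± 3.91 CPM in EVFx and at 6.87 ± 3.31 and 2.83 ± 0.603 CPM in ProteinFx (-3.54 and -2.75 on the log2 scale). Ptgs1, the constitutive cyclooxygenase, went the opposite way, with 0.394, 0.894, 3.2 and 1.01 CPM in EVFx and 33.4, 36.2, 19.9 and 21.5 CPM in ProteinFx (log2 fold change 4.4, SE 0.37, adjusted p = 2.3e-06).

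Several inducible genes had higher mean levels than with PBS in both fractions. Acod1, which makes itaconate, was at 715 ± 101 CPM in EVFx, 140 ± 13.5 CPM in ProteinFx and 3.56 ± 1.53 CPM with PBS (log2 fold change -2.52, SE 0.14, adjusted p = 6.2e-08). The mitochondrial superoxide dismutase gene Sod2 was at 1672 ± 116, 467 ± 63.4 and 84.2 ± 7.12 CPM in the same order (adjusted p = 4.4e-07). Il1b and the nitric oxide synthase gene Nos2 had log2 fold changes of -1.84 and -1.85 (adjusted p = 0.00013 and 0.0036). For Nos2 the lowest EVFx library (18.4, 14.1, 5.67 and 13.1 CPM) lay under the highest ProteinFx library (7.56, 4.06, 1.59 and 1.82 CPM). The 3 members higher in ProteinFx were Il1rn, the interleukin 1 receptor antagonist (1.18, adjusted p = 9.6e-05), Inhba (1.49, adjusted p = 0.0039) and Vegfa (0.44, adjusted p = 0.012). The kappa-B motif bound by NF-kB was found in 9 of the 33 promoters of the list (27.3%), against 10.3% of promoters of genes tested. It was also found in 25% of the promoters of the alternative activation list, 22.2% of those of heat shock genes and 18.5% of those of proteasome genes. The list names inflammatory cytokines and their regulators, so its share describes that choice and is not a result of these libraries.

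Chemokine genes moved both ways. Of 17 tested (25 listed), 7 were higher in EVFx and 7 in ProteinFx (median 0.03). The neutrophil attractants Cxcl1, Cxcl2 and Cxcl3 were among those higher in EVFx. Cxcl2 (ENSMUSG00000058427) read 238, 227, 444 and 394 CPM in EVFx and 21.2, 18.9, 34.3 and 29.6 CPM in ProteinFx (log2 fold change -3.85, SE 0.28, adjusted p = 7.6e-07). Cxcl3 read 92.9, 66.2, 301 and 203 CPM and 2.64, 2.66, 7.57 and 6.48 CPM (log2 fold change -5.44, SE 0.56, adjusted p = 1.3e-05). Its replicates 1 and 2 were below replicates 3 and 4 in both fractions. With PBS these genes were at 4.82 ± 0.456 and 0.21 ± 0.188 CPM. Cxcl1 (-3.12, adjusted p = 6e-06), Ccl5 (-2.13, adjusted p = 4.6e-05), Ccl3 (-2.13, adjusted p = 2.7e-08), Ccl4 (-0.66, adjusted p = 0.0013) and Cxcl10 (-1.28, adjusted p = 0.0026) made up the rest of those higher in EVFx. Of the 7, Cxcl10 was the one whose libraries overlapped.

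The ligands of the monocyte receptor CCR2 and related chemokines were higher in ProteinFx. Ccl7 (ENSMUSG00000035373) had 67.8, 68.8, 28.8 and 40.0 CPM in EVFx and 1345, 1566, 2343 and 1661 CPM in ProteinFx (log2 fold change 4.91, SE 0.29, adjusted p = 1.2e-07). Ccl2 (ENSMUSG00000035385) had 158, 155, 51.5 and 101 CPM and 949, 1043, 1876 and 1493 CPM (log2 fold change 3.37, SE 0.34, adjusted p = 1e-05). Their EVFx levels lay by those of PBS-treated cells, 81.9 ± 26.6 and 91.5 ± 34 CPM, and in both genes the lowest ProteinFx library was over 5 times the highest EVFx library. Ccl8 rose from 86.8 ± 30.6 to 1711 ± 368 CPM (log2 fold change 4.13, SE 0.25, adjusted p = 1.3e-07) and Ccl12 from 93.2 ± 43.7 to 1156 ± 145 CPM (log2 fold change 3.47, SE 0.3, adjusted p = 3.1e-06). Ccl6 (2.25, adjusted p = 2.5e-07) and Ccl9 (1.27, adjusted p = 1.7e-06) followed. Ccl24, an attractant of eosinophils, had 9 counts over the EVFx libraries and 167 over the ProteinFx libraries, a 24-fold difference (95% exact interval 12.3 to 53.4 for counting error). Receptors of these ligands had the same direction. Ccr1 had 8.93, 6.4, 7.64 and 8.41 CPM in EVFx and 158, 136, 224 and 183 CPM in ProteinFx (log2 fold change 4.31, SE 0.2, adjusted p = 2.3e-08). Ccr2, the CCL2 receptor, had 1.33 ± 0.716 and 17.1 ± 2.77 CPM (log2 fold change 3.58, SE 0.29, adjusted p = 1.8e-06).

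**Figure D3:**
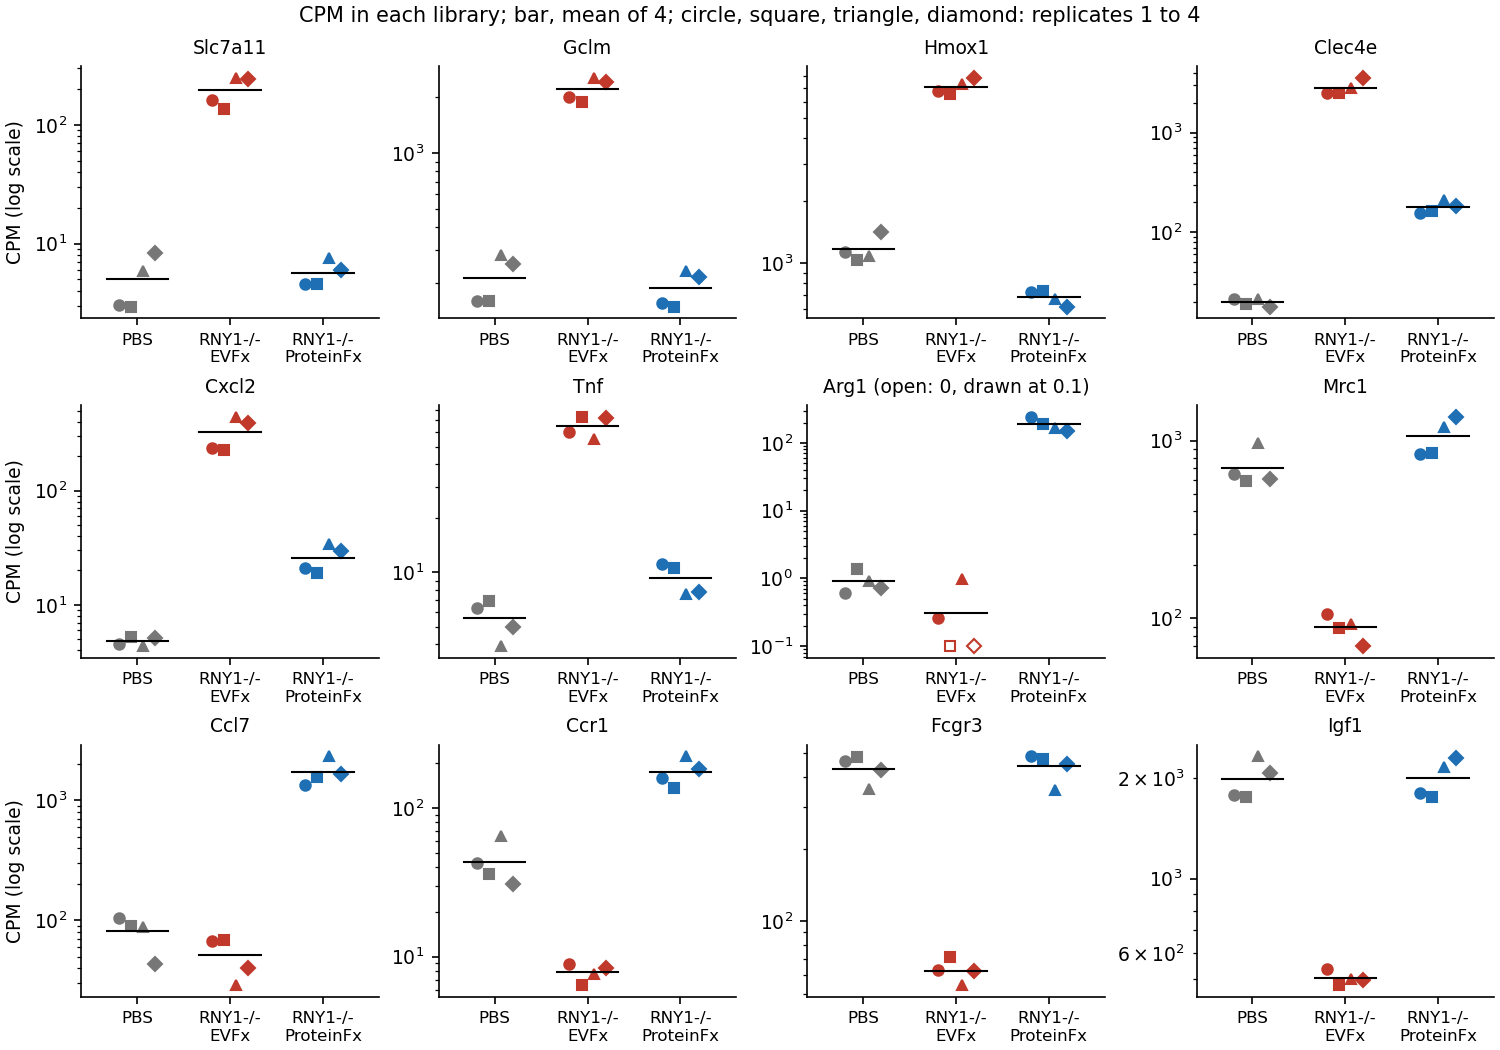
CPM (y axes, log scale) of 12 genes in each library treated with PBS (grey), RNY1-/- EVFx (red) or RNY1-/- ProteinFx (blue), 4 libraries a group, with the group mean as a bar and a replicate number per symbol. EVFx and ProteinFx libraries do not overlap in any of the 12 genes, and PBS lies by ProteinFx for Slc7a11, Gclm, Fcgr3 and Igf1 and by EVFx for Arg1 and Ccl7.

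Alternative activation genes were higher in ProteinFx for 14 of 16 tested members and lower for 1, with a median log2 fold change of 1.88. Arg1 (ENSMUSG00000019987) encodes arginase 1 and can be switched on by interleukin 4 or 13, whose part here was not tested. It was near absent in EVFx at 0.263, 0, 0.985 and 0 CPM. In ProteinFx it read 242, 193, 165 and 151 CPM. The EVFx libraries held 6 Arg1 counts together and the ProteinFx libraries 3664, a ratio of 790.0 (95% exact interval 362.6 to 2154 for counting error; log2 fold change 9.28, SE 0.36, adjusted p = 9.2e-09). PBS-treated cells had 0.908 ± 0.345 CPM. Mrc1 (ENSMUSG00000026712), the mannose receptor, had 106, 88.5, 92.9 and 69.8 CPM in EVFx and 847, 850.1, 1202 and 1362 CPM in ProteinFx (log2 fold change 3.43, SE 0.2, adjusted p = 1.1e-07). The PBS level was 704 ± 177 CPM. For Arg1, PBS was thus near the EVFx level, and for Mrc1 it was near the ProteinFx level.

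Flt1, a receptor for vascular endothelial growth factor, had 9 counts over the EVFx libraries and 378 over the ProteinFx libraries, a 54.3-fold difference (95% exact interval 28.3 to 119.8 for counting error; log2 fold change 5.5, SE 0.39, adjusted p = 5.7e-07). Slc7a2, which imports arginine, had 4.86, 4.62, 3.2 and 9.42 CPM in EVFx and 60.3, 55.7, 82.1 and 82.5 CPM in ProteinFx (log2 fold change 3.46, SE 0.27, adjusted p = 1.3e-06). Clec7a, the beta-glucan receptor dectin 1, was at 104 ± 23.5 and 415 ± 27.1 CPM (log2 fold change 1.85, SE 0.15, adjusted p = 2.1e-06). The member that fell was Myc (-1.55, adjusted p = 0.00012), a regulator of growth that is also on the lists of immediate early and ribosome biogenesis genes. Among 29 genes on the list, 13 did not reach 3 CPM and were not tested, Retnla and Ccl17 among them.

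Pattern recognition and scavenger receptors divided between the fractions, with 14 of 32 tested members (39 listed) higher in EVFx and 12 in ProteinFx (median -0.30). Mrc1, given above, was a member higher in ProteinFx (3.43, adjusted p = 1.1e-07), and the members named next were higher in EVFx. Clec4e (ENSMUSG00000030142), the lectin Mincle, had 2492, 2484, 2809.7 and 3559.9 CPM in the EVFx libraries and 156, 163, 209.6 and 182 CPM in the ProteinFx libraries (log2 fold change -4.16, SE 0.18, adjusted p = 1.8e-08). Both groups were above the 19.9 ± 1.83 CPM of PBS-treated cells. Clec4n, the lectin dectin 2, had 100.5 ± 12.2 CPM in EVFx and 15.3 ± 5.59 CPM in ProteinFx (log2 fold change -2.83, SE 0.19, adjusted p = 2.9e-07). With PBS it had 61.7 ± 23.4 CPM. The formyl peptide receptors Fpr1 and Fpr2 were at 38.3 ± 7.58 and 83.6 ± 8.73 CPM in EVFx, at 7.35 ± 1.55 and 9.53 ± 2.03 CPM in ProteinFx and under 1 CPM with PBS (-2.56 and -3.26 on the log2 scale, adjusted p = 6e-07 and 2.3e-08). The scavenger receptor Marco had 139.9, 232, 125 and 116 CPM in EVFx and 26.1, 62.2, 22.7 and 23.9 CPM in ProteinFx (log2 fold change -2.3, SE 0.3, adjusted p = 0.0001), and replicate 2 was the highest library in each group.

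Genes that mark the resting macrophage were higher in ProteinFx for 16 of 20 tested members (29 listed) and lower for 1, Slc40a1 (median 1.28). Igf1, insulin-like growth factor 1, had 538, 479.6, 499 and 498 CPM in EVFx and 1807, 1753, 2157 and 2296 CPM in ProteinFx (log2 fold change 1.84, SE 0.13, adjusted p = 5.7e-07). With PBS it stood at 1979 ± 273 CPM, closer to ProteinFx than to EVFx. The selenium carrier gene Selenop (1.21, adjusted p = 8.8e-06) and the purine receptor P2ry12 (3.13, adjusted p = 1.9e-06) were also higher in ProteinFx.

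Complement components and Fc receptors were higher in ProteinFx for 19 of 22 tested members (27 listed) and higher in EVFx for 1, Cfb, a complement activator (-1.2, adjusted p = 0.0012), with a median log2 fold change of 1.23. Fcgr3 (ENSMUSG00000059498), a receptor for immunoglobulin G, had 62.8, 70.7, 54.2 and 62 CPM in EVFx and 488, 476, 351 and 453 CPM in ProteinFx (log2 fold change 2.66, SE 0.13, adjusted p = 2.5e-08). With PBS it had 432 ± 57.7 CPM, which was near ProteinFx. Fcgr4 was at 106 ± 37.8 CPM in EVFx and 425 ± 81.1 CPM in ProteinFx (log2 fold change 1.83, SE 0.22, adjusted p = 4.9e-05), while PBS (141 ± 36.8 CPM) was nearer to EVFx. The chains of C1q rose by similar amounts, C1qa by 1.24, C1qb by 1.21 and C1qc by 1.3 on the log2 scale. C1qb was at 217, 237, 140.1 and 139.8 CPM in the EVFx libraries and 658, 619, 294 and 336 CPM in the ProteinFx libraries, where replicates 1 and 2 were above replicates 3 and 4. The shared signalling chain Fcer1g was not called (-0.38, adjusted p = 0.15), but passed with the replicate number as a block (adjusted p = 0.013) and with ProteinFx replicates 3 and 4 alone (-0.79, adjusted p = 0.00049). The receptor gene C5ar2 passed the test with 6.99 ± 0.816 CPM in ProteinFx against 1.64 ± 0.386 CPM in EVFx.

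MHC class II presentation genes were higher in ProteinFx for 7 of 8 tested members (13 listed), with a median of 1.05. Between the RNY1+/+ fractions the median of these members was -0.22. Cd74, the invariant chain, had 17.3, 24, 23.6 and 15.6 CPM in EVFx and 75, 72.1, 44.6 and 44.9 CPM in ProteinFx (log2 fold change 1.41, SE 0.19, adjusted p = 9.7e-05). H2-Aa was at 14.8 ± 1.31 and 35.6 ± 7.46 CPM (log2 fold change 1.11, SE 0.14, adjusted p = 8.9e-05), H2-Eb1 at 6.33 ± 0.305 and 16 ± 4.79 CPM (log2 fold change 1.2, SE 0.19, adjusted p = 0.00043). With PBS they stood at 26.6 ± 10.7, 14.5 ± 2.53 and 8.9 ± 2.39 CPM, nearer to EVFx than to ProteinFx. Class I genes gave 2 higher and 5 lower of 22 (median -0.15, or 0.02 with total counts), led by H2-Q7 (-1.12, adjusted p = 0.00019), which shares reads with its neighbours in this gene family. ProteinFx replicates 1 and 2 alone gave 4 higher and 4 lower (median -0.01). Replicates 3 and 4 alone gave 0 higher and 10 lower (median -0.35). Over all 10419 genes 4705 and 3375 were called in these fits.

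Cholesterol synthesis genes were higher in EVFx for 17 of 24 tested members (26 listed) and higher in ProteinFx for 0, with a median of -0.82. Lss, which makes lanosterol, had 49, 47.8, 51.2 and 55.7 CPM in EVFx and 14.2, 16.9, 19.5 and 16.1 CPM in ProteinFx (log2 fold change -1.79, SE 0.13, adjusted p = 7.6e-07), and 9.92 ± 2.24 CPM with PBS. Mvd (-2.14, adjusted p = 4.9e-06) and Acat2 (-1.77, adjusted p = 5.9e-07) showed the same direction. Acss2, which makes cytosolic acetyl-CoA, had 82.7, 84.6, 107 and 91.2 CPM and 8.5, 8.67, 5.18 and 5.71 CPM (log2 fold change -3.8, SE 0.16, adjusted p = 1.3e-08). Scd1, a fatty acid desaturase, had 43.9 ± 9.85 and 4.49 ± 1.54 CPM (log2 fold change -3.52, SE 0.22, adjusted p = 2.2e-07). Genes of lipid handling under LXR were mixed, with 5 higher and 7 lower of 20 (24 listed) and a median of -0.01, or 0.15 with total counts. The replicate block gave 8 higher and 8 lower. The lipid droplet genes Plin2 (1.34, adjusted p = 1.2e-05) and Hilpda (1.28, adjusted p = 0.00065) were higher in ProteinFx, and Mylip, which marks the LDL receptor for degradation, was higher in EVFx (-1.77, adjusted p = 2.4e-07).

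Heat shock genes (13 of 16 higher in EVFx, 0 in ProteinFx, median -0.69) and proteasome subunits (19 of 31 higher in EVFx, 0 in ProteinFx, median -0.43) moved by smaller amounts. Hsp90aa1 had 593 ± 58.5 CPM in EVFx and 273 ± 49.4 CPM in ProteinFx (log2 fold change -1.28, SE 0.15, adjusted p = 4e-05), with fractional counts in 8 of the 8 libraries. Hspa1a and Hspa1b, near-identical copies of the inducible heat shock protein 70 whose reads cannot be fully separated, gave -2.39 and -1.99. The proteasome subunits Psmb5 (-1.09, adjusted p = 9.6e-06) and Psmd11 (-1.09, adjusted p = 5.6e-06) passed the fold limit, and Psma5 (-0.995, adjusted p = 0.00032) and Psmd14 (-0.94, adjusted p = 2.9e-05) did not. With total counts in place of TMM factors 12 proteasome members were called lower and 0 higher. Of 32 genes of the unfolded protein and amino acid stress responses, 9 were higher in EVFx and 3 in ProteinFx (median -0.20), or 13 and 5 with the replicate block. Ppp1r15a, which restarts translation after stress, was at -2.06 and the chaperone Hyou1 at -0.76. The disulfide isomerase gene Pdia4 went the other way, from 104 ± 9.83 to 279 ± 32.7 CPM (log2 fold change 1.27, SE 0.12, adjusted p = 5e-06).

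Glycolysis and hypoxia genes were higher in ProteinFx for 9 of 25 tested members (26 listed) and lower for 0, with a median of 0.45, against -0.18 between the RNY1+/+ fractions. The counts differed between the pairs of ProteinFx libraries. With ProteinFx replicates 1 and 2 alone 15 were higher and 0 lower (median 0.73), and with replicates 3 and 4 alone 5 were higher and 7 lower (median -0.13). Of all 10419 genes, 4705 were called with the first pair alone and 3375 with the second, against 3047 with all 8 libraries. Ndrg1, which rises in low oxygen, had 75.2, 48.3, 19.9 and 20.2 CPM in the ProteinFx libraries and 9.32, 10.4, 15.5 and 8.08 CPM in the EVFx libraries (log2 fold change 1.82, SE 0.37, adjusted p = 0.0025). Egln3, an oxygen sensor of the same response, had 14.5, 10.5, 3.19 and 2.59 and 1.31, 1.79, 1.97 and 0.841 CPM (log2 fold change 2.34, SE 0.49, adjusted p = 0.0033). With ProteinFx replicates 1 and 2 alone Ndrg1 and Egln3 were at 2.34 and 2.88 on the log2 scale. With replicates 3 and 4 alone Ndrg1 was at 0.82, and Egln3 at 0.86 was no longer called (adjusted p = 0.13). In both genes ProteinFx replicates 1 and 2 were more than 2 times as high as replicates 3 and 4, and the part of this split in the list's counts was not tested. Pdk1, which limits the entry of pyruvate into mitochondria, was more even, at 53.1, 48.8, 39.4 and 35.5 CPM in ProteinFx and 13, 13.1, 11.6 and 7.57 CPM in EVFx (log2 fold change 1.81, SE 0.17, adjusted p = 5.1e-06). Ankrd37 was at 35.7 ± 10.1 and 11.9 ± 3.79 CPM (log2 fold change 1.45, SE 0.25, adjusted p = 0.00072).

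Of 39 lysosomal genes, 17 were higher in ProteinFx and 2 in EVFx (median 0.34), or 20 and 5 with the replicate block. With ProteinFx replicates 1 and 2 alone 29 were higher and 4 lower (median 0.52), and with replicates 3 and 4 alone 13 were higher and 6 lower (median 0.11). Over all 10419 genes these pairs gave 4705 and 3375 calls, against 3047 with all 8 libraries. The cysteine protease gene Ctsl was at 1419.8 ± 137 CPM in EVFx and 5389 ± 1194 CPM in ProteinFx (log2 fold change 1.77, SE 0.18, adjusted p = 9.5e-06). The proton pump subunit gene Atp6v0d2 was at 65.3 ± 7.75 and 329 ± 23.5 CPM (log2 fold change 2.17, SE 0.13, adjusted p = 1.1e-07). Legumain, Lgmn, followed (1.14, adjusted p = 6.3e-05), and the lysosomal acid lipase gene Lipa was higher in EVFx (-1.05, adjusted p = 2.2e-05). Of 18 matrix genes, 9 were higher in ProteinFx and 4 in EVFx (median 0.59). The collagenase gene Mmp13 had 23.6, 24.7, 18.7 and 31 CPM in EVFx and 122, 138, 225 and 167 CPM in ProteinFx (log2 fold change 2.56, SE 0.22, adjusted p = 2.8e-06), with Mmp27 (2.1, adjusted p = 1.4e-07) and Sdc4 (2.07, adjusted p = 9.9e-08) in the same direction and Adamts1 (-1.58, adjusted p = 0.0012) in the other.

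Coagulation and fibrinolysis genes gave 8 higher and 2 lower of 14 (median 0.80), but the gene with the largest change was lower. Procr (ENSMUSG00000027611), the endothelial protein C receptor, had 170.5, 135, 224 and 235 CPM in EVFx and 11, 11.5, 10.4 and 10.4 CPM in ProteinFx (log2 fold change -4.31, SE 0.2, adjusted p = 2.5e-08). PBS-treated cells were at 9.33 ± 2.19 CPM, close to ProteinFx. Its partner in protein C activation, the thrombomodulin gene Thbd, went the other way, with 4.28 ± 0.719 CPM in EVFx and 18 ± 2.09 CPM in ProteinFx (log2 fold change 1.92, SE 0.18, adjusted p = 5.5e-06). F13a1, the A chain of coagulation factor XIII, was higher in ProteinFx, where it had 67.1, 47.6, 13.9 and 15.6 CPM against 4.07, 9.08, 3.2 and 2.19 CPM in EVFx (log2 fold change 2.79, SE 0.5, adjusted p = 0.0011). Again replicates 1 and 2 were above replicates 3 and 4, and the log2 fold change was 3.35 with the former pair alone and 1.52 with the latter. Serpina3g was also higher in ProteinFx (1.99, adjusted p = 0.00087).

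Cell cycle and replication genes gave 6 higher and 2 lower of 22 (median 0.41). The cyclin D genes Ccnd1 and Ccnd2, which drive entry into the cycle, were higher in ProteinFx, Ccnd1 with 34.3, 41.4, 36.1 and 25.2 CPM in EVFx and 173, 168, 176 and 177 CPM in ProteinFx (log2 fold change 2.18, SE 0.13, adjusted p = 1.2e-07) and Ccnd2 with 1.55 on the log2 scale. Cdkn2b and Cdkn1c, which encode inhibitors of cyclin-dependent kinases, were among the genes with the largest falls, and of these the list holds Cdkn1c. Cdkn2b had 23.6, 21.7, 39.2 and 39 CPM in EVFx and 1.32, 0.979, 0.398 and 1.3 CPM in ProteinFx (log2 fold change -4.998, SE 0.34, adjusted p = 3.8e-07). Its PBS level was 1.9 ± 0.903 CPM. Cdkn1c had 69.5 ± 26.5 and 4.0 ± 1.84 CPM (log2 fold change -4.32, SE 0.33, adjusted p = 9.6e-07). For this gene PBS (61 ± 14.8 CPM) was with EVFx. The replication helicase gene Mcm4 was higher in ProteinFx (1.09, adjusted p = 0.00015).

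Of 24 immediate early genes, 8 were higher in ProteinFx and 7 in EVFx (median -0.09, or 0.07 with total counts). Fos was at 56.4 ± 7.94 CPM in EVFx and 243 ± 70.9 CPM in ProteinFx (log2 fold change 1.95, SE 0.21, adjusted p = 1.7e-05), Fosl2 followed it (1.64, adjusted p = 5.7e-05), and Maff was at 14.5 ± 4.92 and 2.23 ± 0.866 CPM (log2 fold change -2.74, SE 0.31, adjusted p = 3e-05). The p53 targets gave 6 in each direction of 19 (median 0.07). Gdf15, a secreted stress factor, had 236, 222, 191 and 181 CPM in EVFx and 24, 31.6, 13.9 and 19.2 CPM in ProteinFx (log2 fold change -3.34, SE 0.18, adjusted p = 6.1e-08). The death receptor gene Fas (-1.8, adjusted p = 1.2e-06) and the BH3 gene Pmaip1 (-1.61, adjusted p = 2.1e-06) were also higher in EVFx, and Psrc1 was higher in ProteinFx (1.9, adjusted p = 1.1e-05). Ribosome biogenesis genes gave 2 higher and 10 lower of 37 (median -0.30), with Gnl3 at -0.81, Nop16 at -0.83 and Polr1a at -0.61, and 4 rather than 10 were lower with total counts and 15 with the replicate block. Nop16 lost its call with total counts (adjusted p = 0.09), with replicates 1 and 2 alone (adjusted p = 0.094) and in 6 of the 8 fits with 1 library left out, and Polr1a with replicates 3 and 4 alone (adjusted p = 0.095) and in 2 of the 8.

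Among the DEGs with the largest changes that none of the 27 lists holds were Gatm, Eps8, Htr2b and Il1rl2 in ProteinFx and Ednrb, Zfp811 and Plpp1 in EVFx. Gatm (ENSMUSG00000027199), which makes the precursor of creatine, had 25.1, 20.6, 13.8 and 13.6 CPM in EVFx and 661, 694, 1024 and 989 CPM in ProteinFx (log2 fold change 5.35, SE 0.25, adjusted p = 2.3e-08). The actin regulator gene Eps8 had 7.66 ± 1.86 and 112 ± 11.9 CPM (log2 fold change 3.71, SE 0.17, adjusted p = 2.2e-08). Htr2b, a serotonin receptor, had 1.97, 1.34, 1.48 and 1.35 CPM in EVFx and 33.4, 31.6, 33.9 and 34.2 CPM in ProteinFx (log2 fold change 4.23, SE 0.17, adjusted p = 1e-08), a narrow spread in both groups. Il1rl2, the receptor of interleukin 36, had 1.95 ± 0.558 and 20.5 ± 1.47 CPM (log2 fold change 3.28, SE 0.2, adjusted p = 1.5e-07). Ednrb (ENSMUSG00000022122), the endothelin receptor type B, had 424, 352, 484 and 439.8 CPM in EVFx and 26.1, 31.1, 31.9 and 28.5 CPM in ProteinFx (log2 fold change -4.02, SE 0.14, adjusted p = 5.4e-09). PBS was by ProteinFx at 23.6 ± 1.56 CPM. The zinc finger gene Zfp811 had 54.6 ± 5.46 and 3.28 ± 1.56 CPM (log2 fold change -4.34, SE 0.21, adjusted p = 2.7e-08) and the lipid phosphatase gene Plpp1 66.2 ± 7.02 and 7.99 ± 2.98 CPM (log2 fold change -3.32, SE 0.22, adjusted p = 2.7e-07), both under 1 CPM with PBS. The predicted gene Gm20658 was higher in EVFx (-3.69, adjusted p = 5.2e-08).

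The DEGs of highest mean CPM in each direction include Prdx1, Hmox1, Clec4e, Ctsl, Igf1, Lgmn and Selenop, given above, and Cybb, Creg1 and Lgals3. Cybb, the catalytic subunit of the phagocyte NADPH oxidase, had 6375, 5964, 7413 and 7357 CPM in EVFx and 3085, 2812, 3270.1 and 3152 CPM in ProteinFx (log2 fold change -1.3, SE 0.13, adjusted p = 7.7e-06). Both were above PBS (1539 ± 208 CPM). The lysosomal glycoprotein gene Creg1 had 3868 ± 353 and 1343 ± 83.6 CPM (log2 fold change -1.69, SE 0.12, adjusted p = 4.7e-07). Lgals3, galectin 3, was higher in ProteinFx, 2684 ± 640.2 against 922 ± 147 CPM (log2 fold change 1.38, SE 0.16, adjusted p = 2.9e-05), and higher still with PBS at 4982 ± 1101 CPM. Among macrophage markers, Adgre1, which encodes F4/80, was higher in EVFx (-0.56, adjusted p = 0.0047), and the lysozyme gene Lyz2 was not called (0.06, adjusted p = 0.77).

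Interferon-stimulated genes gave 14 higher and 8 lower of 61 tested (64 listed) and a median of 0.08, against 0.43 between the RNY1+/+ fractions. Ifit1 had 2634, 2248, 1653 and 2659 CPM in EVFx and 1028, 1108, 2464 and 1941 CPM in ProteinFx against 93.5 ± 16.5 CPM with PBS (log2 fold change -0.64, SE 0.28, adjusted p = 0.11). Its counts were fractional in 8 of the 8 libraries. With the replicate number as a block Ifit1 passed (adjusted p = 0.031), and 18 members of the list were then higher and 15 lower with the same median of 0.08. Ifit1 also passed with ProteinFx replicates 1 and 2 alone (-1.32, adjusted p = 0.00011) and without ProteinFx replicate 3 (adjusted p = 0.013). The ProteinFx libraries 1 and 2 were below all 4 EVFx libraries, and libraries 3 and 4 were within the EVFx range. Mx1 had 245 ± 83.5 and 229 ± 30.7 CPM against 17 ± 1.51 CPM (log2 fold change -0.26, SE 0.21, adjusted p = 0.4), and passed without EVFx replicate 3 (adjusted p = 0.047). Cxcl10, which attracts T cells, had 261, 245, 128 and 194 CPM in EVFx and 66.7, 71.2, 136 and 109 CPM in ProteinFx (log2 fold change -1.28, SE 0.26, adjusted p = 0.0026). Gbp5 (-1.11, adjusted p = 0.00072) and Oasl1 (-0.98, adjusted p = 0.007) were higher in EVFx as well, and the immunity-related GTPase gene Iigp1 was higher in ProteinFx, at 291 ± 26.6 against 105 ± 38.3 CPM (log2 fold change 1.3, SE 0.22, adjusted p = 0.00074). The core of the interferon-stimulated response element, GAAANNGAA on either strand, was found in 35 of the 56 promoters of the list (62.5%), against 7.42% of promoters of genes tested. The list names genes that interferons switch on, so this share describes that choice and is not a result of these libraries.

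Genes of basic cell function showed few calls with all 8 libraries, and the counts changed with the pair of ProteinFx libraries used. Of 77 cytosolic ribosomal protein genes, 1 was higher and 4 lower (median 0.04), with Rps29 (0.38, adjusted p = 0.039) and Rpl24 (-0.63, adjusted p = 0.00063) those furthest from 0 in each direction. Rps29 lost its call in 6 of the 8 fits with 1 library left out and with replicates 3 and 4 alone (0.16, adjusted p = 0.23). Rps15a (-0.41) and Rps27a (-0.45) among the other 3 lower members held fractional counts in 8 of 8 libraries, and Rps15a lost its call in 3 of the 8 fits. With ProteinFx replicates 1 and 2 alone 33 were higher and 3 lower, and with replicates 3 and 4 alone 0 were higher and 17 lower, while 4 were higher with the replicate block. The calls over all 10419 genes also rose from 3047, to 4705 and 3375 with these pairs and 3705 with the block. Of 73 nuclear genes of oxidative phosphorylation, 4 were higher and 1 lower (median 0.10). The counts became 8 higher and 1 lower with the replicate block, 32 and 3 with replicates 1 and 2 and 4 and 3 with replicates 3 and 4. Ndufv3 (0.69), Ndufb5 (0.38) and Atp5mc1 (0.47) were higher in ProteinFx and Cox5a (-0.61) was higher in EVFx. With replicates 3 and 4 alone Ndufv3 (0.3, adjusted p = 0.059) and Atp5mc1 (0.2, adjusted p = 0.35) were not called, and Atp5mc1 also lost its call in 5 of the 8 fits with 1 library left out. Among 13 mitochondrially encoded genes 1 was higher and 0 lower, and mt-Co1 stood at 1929 ± 45.4 CPM in EVFx and 1977 ± 83.8 CPM in ProteinFx (log2 fold change -0.12, SE 0.1, adjusted p = 0.39), mt-Co3 at 3470 ± 550 and 3748 ± 835 CPM (log2 fold change -0.04, SE 0.18, adjusted p = 0.89).

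The lists that follow changed less between the pairs. With replicates 1 and 2 alone and with replicates 3 and 4 alone, 21 and 20 NRF2 genes were lower, 21 and 22 cytokine genes lower, 17 and 17 cholesterol genes lower and 18 and 25 proteasome genes lower. In the same order, 14 and 15 alternative activation genes, 20 and 17 complement and Fc receptor genes, 18 and 15 resting macrophage genes and 7 and 5 MHC class II genes were higher.

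Rab14 (403 ± 24 CPM in EVFx and 442 ± 42.1 CPM in ProteinFx, log2 fold change -0.03, SE 0.09, adjusted p = 0.84), Arpc2 (792 ± 68.7 and 948 ± 129 CPM, log2 fold change 0.1, SE 0.11, adjusted p = 0.56) and Cltc (486 ± 9.67 and 636 ± 26.8 CPM, log2 fold change 0.23, SE 0.09, adjusted p = 0.078), which the study used as references for qPCR, were not called, though Cltc passed with ProteinFx replicates 3 and 4 alone (0.25, adjusted p = 0.045). Edn1, the endothelin 1 gene, had 1.71, 3.13, 3.45 and 4.04 CPM in EVFx and 3.4, 2.38, 5.98 and 3.89 CPM in ProteinFx (log2 fold change 0.09, SE 0.35, adjusted p = 0.88), from 13 to 24 counts in each library. The mouse Y RNA genes were not among the genes tested. Each of the 2 entries for Rny1 held at most 0.5 counts in any of the 8 libraries and Rny3 at most 0.5. Elsewhere each Rny1 entry had 1 to 1.5 counts in the RNY1+/+ EVFx libraries, at most 0.5 in RNY1+/+ ProteinFx and 0 with PBS. Counts this low in recipient cells were not used to check the donor genotype. The deletion was in the fluid's donors, and Y RNAs have no poly(A) tail.

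The same pair of fractions from RNY1+/+ donors was measured in 8 other libraries, which allowed the fraction effect to be set side by side for the 2 donor genotypes. Across the 10419 genes the log2 fold changes had a Pearson r of 0.657 and a Spearman rho of 0.439, and 6450 had the same sign. Across the 942 DEGs, which were chosen for a large fold in the first contrast, the values were 0.909 and 0.879, and 894 had the same sign. These describe genes of 2 contrasts with no library in common, and genes are not independent replicates. The NRF2 list had a median of -2.74 between the RNY1+/+ fractions, alternative activation 1.63 and cholesterol synthesis -0.94. Arg1 gave 8.71, Ccl7 5.54, Gatm 6.3, Hmox1 -3.2 and Mrc1 3.44 on the log2 scale. The difference of the 2 effects was 0.58 for Arg1 (adjusted p = 0.65), -0.65 for Ccl7 (adjusted p = 0.24) and -0.96 for Gatm (adjusted p = 0.025). For Hmox1 and Mrc1 it was -0.34 (adjusted p = 0.11) and -0.03 (adjusted p = 0.95). With GC and length trends removed Hmox1 passed the adjusted p at -0.67 (adjusted p = 0.015).

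**Figure D4:**
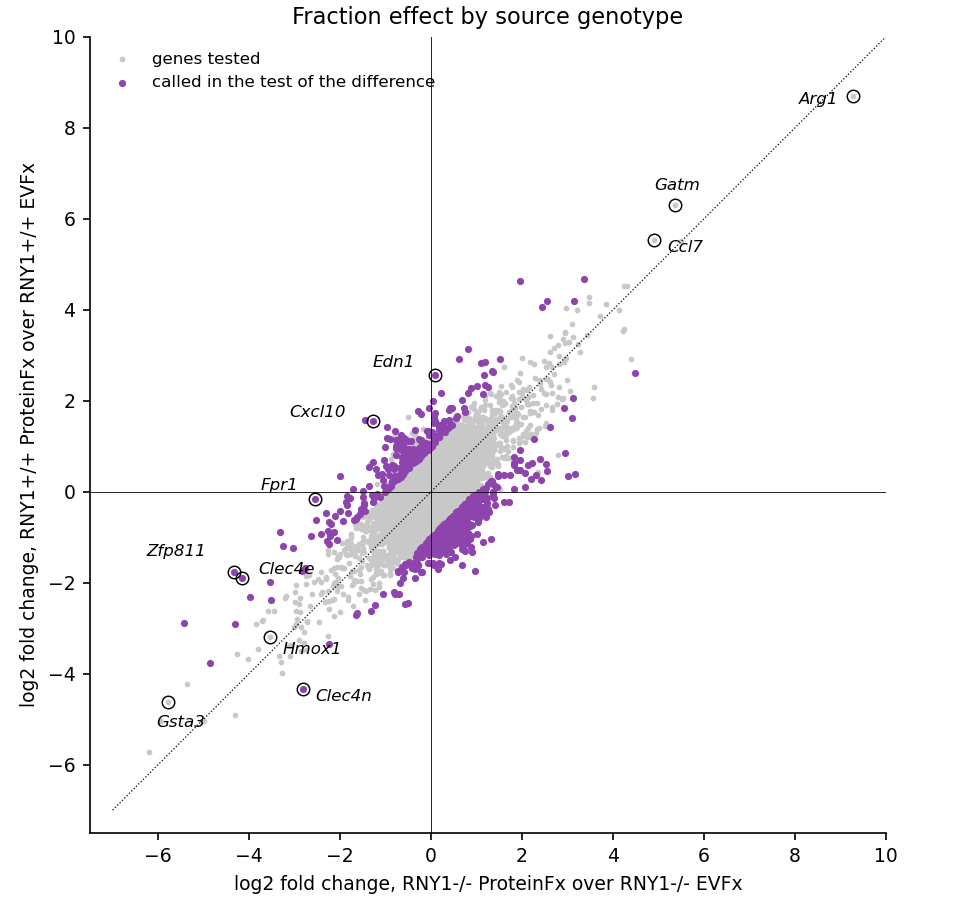
Log2 fold change of ProteinFx over EVFx for RNY1-/- donors (x axis) and RNY1+/+ donors (y axis), 1 point per gene, with a dotted line where both are equal and genes called in the test of the difference in purple. Arg1, Gatm and Ccl7 lie at the upper right and Gsta3 and Hmox1 at the lower left, while Cxcl10 is at -1.28 on the x axis and 1.54 on the y axis.

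The test of that difference over 16 libraries (an interaction term, called at an adjusted p under 0.05 and an absolute contrast above 1) called 788 genes (7.56%), 543 with a higher ProteinFx over EVFx effect in RNY1-/- and 245 with a lower one. This count moved with the libraries and the processing. It was 1874 with RNY1-/- ProteinFx replicates 1 and 2 alone, 102 with replicates 3 and 4 alone and 418, with 197 higher and 221 lower, after GC and length trends were removed. Without RNY1-/- ProteinFx replicate 2 it was 485 and without replicate 3 it was 1189. With total counts in place of TMM factors, 946 of 1073 called genes (88.2%) had the higher effect, against 68.9% with TMM. Across genes, the contrast went with transcript GC content (Spearman rho 0.580 over 10088 genes), which the RNY1-/- fold change itself had with a rho of 0.0653. The part of GC content and of the pairs in these calls was not tested beyond these counts.

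Among genes with 10 CPM or more on average in the 16 libraries, positive contrasts included Ftl1-ps1 (1.89), Ucp2 (1.89), Tpi1 (1.85), Laptm5 (1.79) and H2-Eb1 (1.76). Ftl1-ps1 held fractional counts in 8 of the 8 RNY1-/- libraries. Its contrast did not pass with replicates 3 and 4 alone (1.6, adjusted p = 0.081). Its fold change between the RNY1-/- fractions was -0.57 (adjusted p = 0.036). That call was lost with replicates 1 and 2 alone (adjusted p = 0.094) and in 6 of the 8 fits with 1 library left out. Tpi1, a glycolytic enzyme, had 125, 101, 40.4 and 37.3 CPM in the RNY1-/- ProteinFx libraries, 40.7, 35.5, 40.4 and 33.7 CPM in RNY1-/- EVFx, 42.1 ± 5.67 CPM in RNY1+/+ ProteinFx and 81.9 ± 14.1 CPM in RNY1+/+ EVFx. Its log2 fold change between the RNY1-/- fractions was 0.87 (adjusted p = 0.047). The call was lost in 6 of the 8 fits with 1 library left out, and the value was 1.38 with ProteinFx replicates 1 and 2 alone and -0.060 with replicates 3 and 4 alone. Laptm5, a lysosomal membrane protein of blood cells, had 227, 199.6, 78.9 and 84.3 CPM in RNY1-/- ProteinFx and 81.2, 87.7, 64 and 60.2 CPM in RNY1-/- EVFx. In both genes ProteinFx replicates 3 and 4 overlapped EVFx and replicates 1 and 2 did not, and with replicates 3 and 4 alone the contrasts were 0.92 and 0.99 (adjusted p = 0.022 and 0.024).

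The negative contrasts, on the same limit, were led by Cxcl10 (-2.85), Zfp811 (-2.58), Cxcl3 (-2.56), Edn1 (-2.49), Plpp1 (-2.45) and Fpr1 (-2.41). With replicates 3 and 4 alone, Zfp811 (-2.23, adjusted p = 0.01), Plpp1 (-1.91, adjusted p = 0.024) and Fpr1 (-2.5, adjusted p = 0.017) passed the test. Cxcl3 (-1.78, adjusted p = 0.29) and Edn1 (-2.01, adjusted p = 0.055) did not. For Cxcl10 the ProteinFx over EVFx effect was -1.28 in RNY1-/- and 1.54 in RNY1+/+, where ProteinFx stood at 459 ± 113 CPM and EVFx at 155 ± 84.5 CPM. The contrast was -3.33 with ProteinFx replicates 1 and 2 alone and -2.43 with replicates 3 and 4 alone (adjusted p = 0.017 for the latter). For Clec4e the effect was -4.16 and -1.9, with 817 ± 289 CPM in RNY1+/+ ProteinFx (contrast -2.27, adjusted p = 0.00019, and -2.07 with replicates 3 and 4 alone). Fpr1 was at 61.5 ± 10.2 CPM in RNY1+/+ EVFx and 54.9 ± 26.1 CPM in RNY1+/+ ProteinFx, so that its fold change of -2.56 between the RNY1-/- fractions stood beside -0.16 between the RNY1+/+ fractions. Edn1 was at 29.1 ± 11.5 CPM in RNY1+/+ ProteinFx and 4.88 ± 1.12 CPM in RNY1+/+ EVFx.

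**Figure D5:**
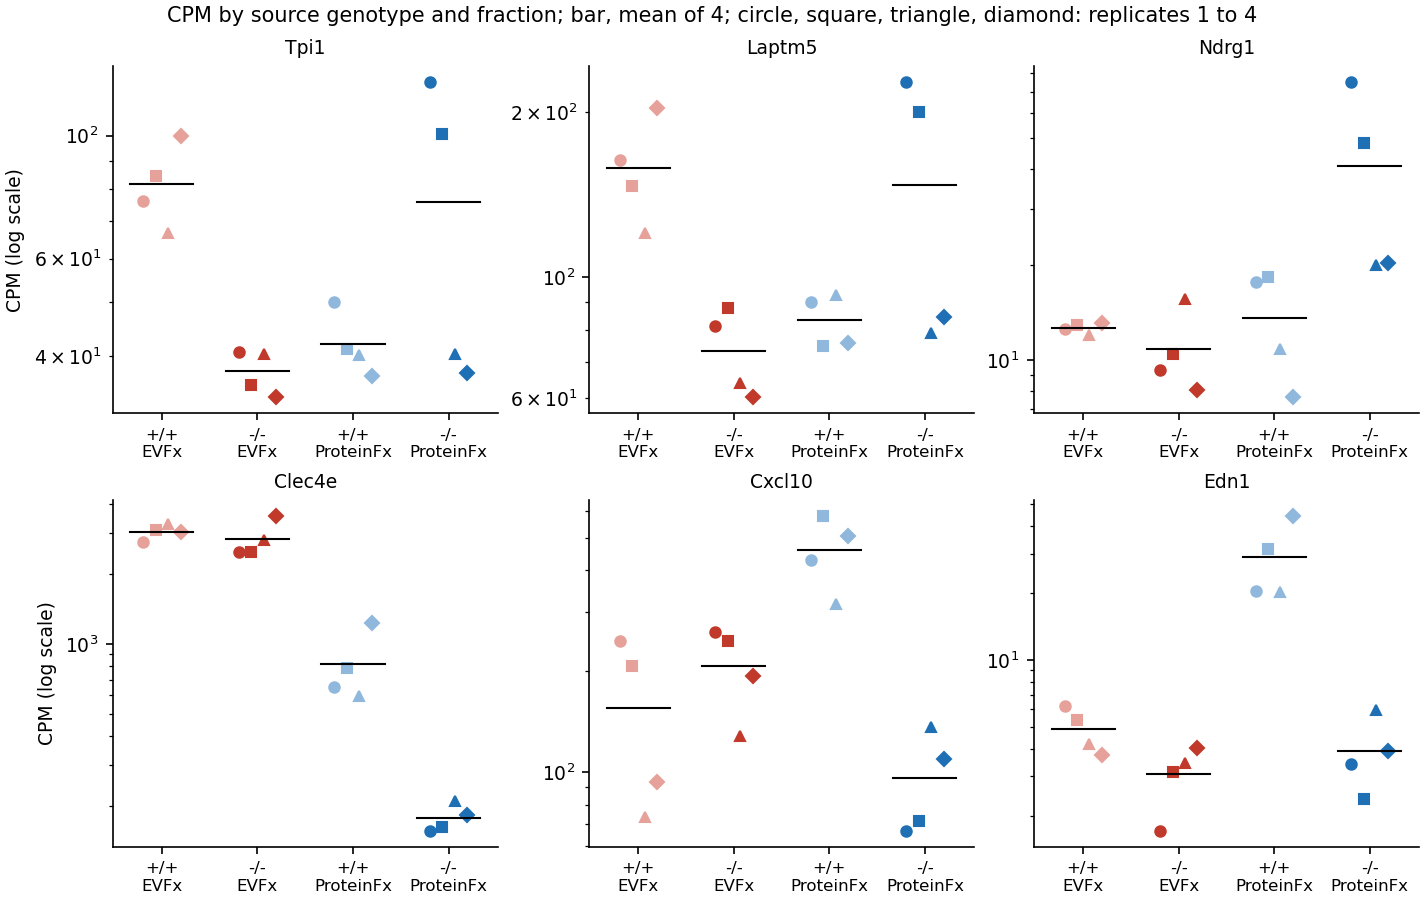
CPM (y axes, log scale) of 6 genes in the 4 libraries of each donor genotype (+/+ or -/-) and fraction, with group means as bars and a replicate number per symbol. Tpi1, Laptm5 and Ndrg1 (top) have -/- ProteinFx replicates 1 and 2 well above replicates 3 and 4, while for Clec4e and Cxcl10 (bottom) the 4 -/- ProteinFx libraries are below the 4 +/+ ProteinFx libraries, as they are for Edn1.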

How the data were processed

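Poly(A) 3′-end RNA-seq libraries with molecular identifiers were made from macrophages in 5 groups of 4. The authors deposited expected counts per gene, which are estimated counts because featureCounts (Subread 2.1.1, strand-specific, exons and 3′ ends) split reads mapping to several places. Before that, reads were trimmed with fastp 0.24.0, aligned with STAR 2.7.11 and collapsed by identifier. The submitters' notes name GRCm39, SAMtools 1.22.1, FastQC 0.12.1 and MultiQC 1.32. The authors also deposited CPM per gene, made with edgeR 4.0.16 from these counts. Fractional counts made up 23.6 to 26.3% of the genes detected in a library. Spike-in rows (92 entries, at most 0.00305% of counts) were left out. Multimapped reads bear on genes with close copies, and counting at 3′ ends leaves no dependence on transcript length by design.

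Expected counts were rounded and tested with edgeR 4.0.16 in R 4.3.3 (TMM scaling, glmQLFit and glmQLFTest, Benjamini-Hochberg adjustment over all genes tested), with the 8 RNY1-/- libraries in the fit and no other term. Genes entered with 3 CPM or more on average in these 8 if filterByExpr also passed them. The limits for DEGs were 0.05 on the adjusted p and 1 on the size of the log2 fold change. The interaction was fitted over the 16 libraries of the 4 fluid groups. Every adjusted p is from these fits, and single library values were compared by exact permutation (SciPy 1.17.1). Scripts were tested on simulated data. Levels are CPM of the library total, the libraries of the 8 holding 2510005 to 7613972 counts, and intervals and floors cover counting error only. Alternatives used DESeq2 1.42.0, other filters and scalings, left-out libraries, GC and length trends (10088 genes with a value) and subsets of ProteinFx libraries. Adding replicates 1 and 2 against 3 and 4 as a term was chosen after seeing the data.

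Same-numbered RNY1-/- libraries deviated together from their group means (correlations across genes of 0.23, 0.42, 0.31 and 0.30). In the alternative fits with a replicate block the numbers were taken to pair them, which no label states. The main fits, with their p-values and list counts, had no such term. The replicate block gave 947 DEGs, 926 of them among the 942, and 3705 genes by adjusted p. Libraries with other numbers within replicates 1 and 2 (0.22 and 0.37) or within 3 and 4 (0.13 and 0.25) also deviated together, so the block and this split overlap. In the RNY1+/+ groups the same-number correlations were -0.09 to 0.22.

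The comparison, the gene lists and the rule for named genes were chosen with earlier results of these data known. Genes named by rule were the 15 DEGs with the largest rise and fall (mean of at least 10 CPM, no overlap of libraries), the 5 of highest mean CPM in each direction, up to 4 members of each list, the study's candidate and reference genes, and the 6 largest interaction contrasts in each direction, and some of these genes are not reported here. Nfe2l2, Srxn1, Cat, Gsr, Txnrd1, Cxcl1, Ccl3, Ccl4, Ccl5, Il1b, Nos2, Acod1, Sod2, the C1q chains, Il1rn, Inhba, Vegfa, Cfb, Clec7a, Ccl6, Ccl9, Marco, Ccr3, Cd28, Il7r, Fcer1g, Adgre1 and Lyz2 were added after their values were seen. Promoters came from RefSeq (GRCm38.p6) and GC content from GENCODE on GRCm38, matched by symbol or gene identifier.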

Additional observations from a re-analysis of the deposited data

Results flagged for a closer look

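Among 10419 genes, 788 (7.56%) differed in their fraction effect between the donor genotypes, and 37 of these are named here, some of them by rule for their large contrast. This is by the interaction test at an adjusted p under 0.05 and an absolute contrast above 1 (RNY1-/- minus RNY1+/+ effect of ProteinFx over EVFx). Of the 37, 21 had a lower contrast and 16 a higher one. Inflammatory and interferon genes were lower: Acod1 (-1.92), Ccl2 (-1.33), Cxcl10 (-2.85), Cxcl3 (-2.56), Ifit1 (-1.71), Il1b (-1.54), Mx1 (-1.15), Nos2 (-1.76), Ptgs2 (-1.56) and Sod2 (-1.59). The receptors Clec4e (-2.27), Fpr1 (-2.41), Fpr2 (-2.07) and Procr (-1.4) were lower too, as were Edn1 (-2.49), Gsr (-1.11), Mmp13 (-1.65), Plpp1 (-2.45), Scd1 (-1.14), Spic (-1.1) and Zfp811 (-2.58).

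Antigen presentation genes were higher, namely Cd74 (1.7), H2-Aa (1.23), H2-DMa (1.93) and H2-Eb1 (1.76). So were C1qb (1.38), Ccl6 (1.09), Clec4n (1.5) and the metabolic and hypoxia genes Ankrd37 (1.34), Atp5mc1 (1.08), Ndrg1 (1.75), Ndufv3 (1.13), Tpi1 (1.85) and Ucp2 (1.89). The rest were Ftl1-ps1 (1.89), Laptm5 (1.79) and Psrc1 (1.42). The same direction passed the adjusted p for 20 of the 37 with RNY1-/- ProteinFx replicates 3 and 4 alone and for 34 of the 37 with GC and length trends removed. Over all genes, 357 passed the adjusted p in the first of these fits and 2133 in the second. Of the 788 calls, 96 and 284 passed both limits there, and the share passing the adjusted p alone was not counted.

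In 334 groups of 4 values looked at, 6 had 1 library far from the others by Dixon's criterion, where chance flags about 1 in 20. Fos was at 68.2 CPM in 1 EVFx library against 53.5 CPM in the next, and H2-Q7 at 48.9 CPM against 62.5 CPM. In ProteinFx, Marco was at 62.2 CPM against 26.1 CPM, Mvd at 2.07 CPM against 3.98 CPM and P2ry12 at 9.86 CPM against 14.3 CPM. The ribosomal protein share was 3.31% in 1 EVFx library against 3.08% in the next.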

How the results depend on the processing

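The 942 DEGs became 627 with a mean of at least 10 CPM (fewer genes tested), 2345 with an absolute log2 fold change above 0.5 and 240 with one above 2, and lay between 888 and 1000 with any 1 library left out. Genes by adjusted p alone ranged from 2346 to 3374 with 1 library left out and numbered 4705 with ProteinFx replicates 1 and 2 only. The 788 interaction calls became 417 with a mean of at least 10 CPM, 418 with GC and length trends removed, 439 when the replicate block was added to that, 3408 without the limit on the contrast, 1874 with ProteinFx replicates 1 and 2 only and 102 with replicates 3 and 4 only (96 shared with the 788). With 1 library left out they ranged from 485 (without RNY1-/- ProteinFx replicate 2) to 1189 (without replicate 3). The replicate block alone gave 947 DEGs and 785 interaction calls, and among the genes followed it changed the calls of Ifit1 and Fcer1g only. The cause of these moves was not tested.

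Of 162 genes followed, 135 had the same direction and side of the threshold in each of up to 22 alternatives. The log2 fold change of Tpi1, called at 0.87, changed sign with replicates 3 and 4 only (-0.060). Values that were not called changed sign with replicates 3 and 4 only for Arpc2 (-0.023), Lyz2 (-0.053) and mt-Co3 (0.24), with replicates 1 and 2 only for Edn1 (-0.29) and Rab14 (0.016), and with total counts for Rab14 (0.13), mt-Co1 (0.036) and mt-Co3 (0.11). With 1 library left out, Edn1 ranged from -0.14 to 0.34 and mt-Co3 from -0.17 to 0.091. The reference gene Cltc passed under 7 alternatives, with total counts at 0.39 (adjusted p = 0.0034). The smallest library had 2510005 counts, so genes near 3 CPM rest on few counts there, and thinning all libraries to it gave 946 DEGs.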
